A study of Mus musculus with 6 samples.

Results

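The collagen genes are described here across the cell types of the mouse uterine tube, and between its proximal and distal sections. They were taken as every row of the gene list whose symbol is Col, a number, a and a number, which gave 44 of 50559 genes. Tubes of adult C57BL6 female mice in estrus had been cut into a proximal section, toward the uterus, and a distal section, toward the ovary. Tissue of a section was pooled over the mice of a group, and 6 droplet libraries (10x Genomics Single Cell 3′ v2) resulted: proximal 2, 3 and 4, and distal 1, 2 and 3, numbered by their titles. All mice were of 1 strain with no treatment or transgene in the labels. Each library is 1 pool, so p-values concern pools, not single mice or cells. They also use a spread shared between genes. A small p-value therefore does not mean that a gene's own pools lay close together. The tissue was freed with collagenase, hyaluronidase, TrypLE and Dispase II, and dead cells were removed before loading.

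Collagens are proteins built of 3 chains wound into a triple helix, and each chain is the product of 1 gene. Fibrillar collagens (types I, III, V, XI, XXIV and XXVII) form the tensile fibrils of stroma, while fibril-associated collagens decorate those fibrils. Type IV collagen forms the sheet-like network of basement membranes under epithelium and around vessels and muscle cells. Type VI forms beaded filaments that lie between fibrils and basement membranes, and types XV and XVIII (multiplexins) sit in or near basement membranes. Types XIII, XVII, XXIII and XXV are anchored in the cell membrane. In the uterine tube the stroma and muscle coat lie around a folded layer of ciliated and secretory epithelium.

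Each count is a unique molecular identifier (UMI), 1 captured mRNA molecule counted near its 3′ end. The filters and the removal of doublets left 824, 325 and 1133 cells in proximal 2, 3 and 4, and 6652, 4115 and 5417 cells in distal 1, 2 and 3. Their median depth before filtering ran from 733 UMIs per barcode in proximal 3 to 4580.5 in distal 2, so proximal 3 is the shallowest library. Proximal 2 held too few smooth muscle, blood endothelial and mesothelial cells to enter those classes. Pairs of libraries shared 0 to 58 cell barcodes, at most 1.83% of the smaller library. The cells formed 32 clusters, of which 29 took a class name from marker genes that include no collagen. Clusters 2 and 6 (1765 and 927 cells) detected 9 epithelial markers but stayed unnamed. They are not part of the class called non-ciliated epithelium below. The fibroblast clusters detected 5 or 6 of 6 fibroblast markers (such as Pdgfra and Dcn), the smooth muscle clusters 7 of 8 and the pericyte and blood endothelial clusters 8 of 8 of their own. Levels below are CPM, the UMIs of a gene summed over the cells of a class in 1 library and scaled to the summed UMIs of those cells, for libraries with at least 10 such cells. These counts are not scaled to gene length, so a level compares 1 gene between samples rather than 1 gene with another.

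Of the 44 collagens, 43 had at least 1 UMI in the 18466 cells, and Col10a1, the growth plate collagen of hypertrophic cartilage, had 0 of 80571561 UMIs. Collagens held 663514 UMIs in all, 0.824% of the total, and 28 genes had at least 1000. Col1a1, Col1a2 and Col3a1, the chains of types I and III, together held 61.1% of collagen UMIs. By role, the 11 fibrillar genes held 66.2%, the 6 beaded filament genes of type VI 16.8%, the 6 type IV genes 8.35% and the 2 multiplexins 3.75%. The 9 fibril-associated genes held 2.16%, the 4 transmembrane genes 2.13% and the 3 short-chain genes (types VIII and X) 0.313%. A total of 7 genes had under 100 UMIs in all cells, among them Col2a1 of cartilage with 5 UMIs and Col9a1 with 10. A total of 37 collagens reached at least 1 of the region tests, and the other 7 are given by their UMIs only.

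Fibroblasts carried the bulk of the collagen transcripts. Collagens took 2.36, 2.68 and 3.41% of fibroblast UMIs in proximal 2, 3 and 4, and 1.77, 2.08 and 1.90% in distal 1, 2 and 3. The proximal and distal shares did not overlap. Over all libraries with enough cells, the share averaged 2.37 ± 0.61% in fibroblasts (SD, n = 6). It averaged 0.644 ± 0.074% in pericytes (n = 3), 0.418 ± 0.092% in smooth muscle (n = 5) and 0.241 ± 0.076% in blood endothelial cells (n = 5). In epithelium it averaged 0.049 ± 0.012% in non-ciliated cells (n = 6) and 0.048 ± 0.018% in ciliated cells (n = 5). By the mean over libraries, 24 of the 43 genes with a UMI were highest in fibroblasts, 4 each in smooth muscle and mesothelial cells, 3 in blood endothelial cells, 2 each in pericytes, ciliated epithelium and myeloid cells, and 1 each in lymphatic endothelium and non-ciliated epithelium.

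**Figure D1:**
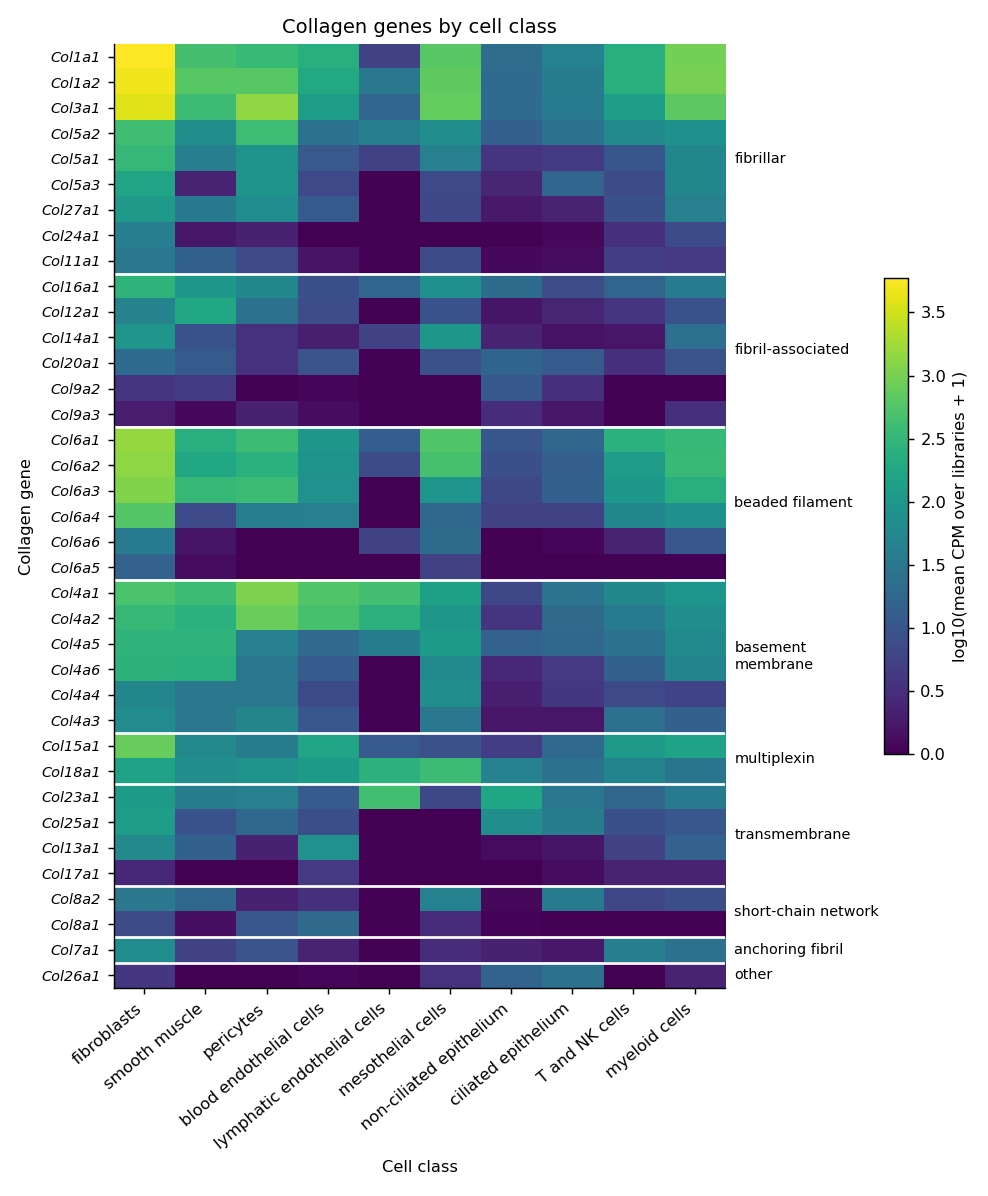
Mean level of each collagen gene with at least 100 UMIs (37 rows, grouped by role) in 10 cell classes, as log10 of the mean CPM over libraries plus 1. Types I, III and VI are brightest in fibroblasts, Col4a1 and Col4a2 in pericytes, and Col23a1 stands out in lymphatic endothelium and non-ciliated epithelium.

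RNA released from broken fibroblasts can enter any droplet, so levels outside stroma were set beside the pooled level of Dcn, Lum and Dpt, 3 fibroblast genes that the other classes should lack. These sat at 0.540% of their fibroblast level in non-ciliated epithelium, 0.799% in ciliated epithelium and 2.10% in blood endothelial cells, but at 16.4% in myeloid cells. In non-ciliated epithelium Col1a1 lay at 0.35% and Col3a1 at 0.50% of their fibroblast levels, no higher than those 3 genes, and both are read as background. In contrast, 6 of 35 collagens lay above the highest value of the 3 genes (0.841%) wherever fibroblasts held enough UMIs for a ratio. These were Col4a5, Col16a1, Col18a1, Col20a1, Col23a1 and Col26a1. Shallow libraries could drop out for a gene, and RNA from cells other than fibroblasts was not covered. In T and NK cells and in myeloid cells, 0 of 35 lay in all such libraries above the highest value of the 3 genes. That value was 5.26% and 33.3% there. Collagen RNA made by these cells below those levels could not be told from background. In mesothelial cells the 3 genes stood at 49.9%, and only Col8a2 and Col18a1 of 35 lay above their highest library. In smooth muscle the 3 genes stood at 5.28%, and at 11.3% in their highest library. There 10 of 35 collagens lay above that in all such libraries, and Col1a1, Col1a2 and Col3a1 were not among them.

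The fibrillar genes were led by type I and type III in stromal classes. Col1a1, the major chain of type I, had 6540, 6874 and 8213 CPM in proximal fibroblasts, against 4438, 5101 and 4372 CPM in distal fibroblasts. Its partner Col1a2 had 4854, 5309 and 6432 CPM in proximal fibroblasts, against 3458, 4807 and 4466 CPM in distal fibroblasts. Both were higher in each proximal library than in any distal one. The mean Col1a1 level in fibroblasts was 6.19 times that of the next class, and the ratio was 4.92 for Col1a2. Col24a1, a minor fibrillar chain, was also highest in fibroblasts by 6.68 times, at a mean of 39.8 CPM. In pericytes, the contractile cells wrapped around capillaries, Col3a1 was the leading collagen with 1746, 1151 and 1313 CPM in distal 1, 2 and 3, whereas Col1a1 had 605, 123 and 368 CPM there. The proximal libraries held 2, 0 and 2 pericytes, so pericytes are described in distal tissue only.

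Type IV transcripts were found in the cells that line or wrap vessels and also in fibroblasts. Col4a1 and Col4a2, which assemble into the common type IV trimer, had 1068, 1521 and 613 CPM and 860, 904 and 665 CPM in distal pericytes. In blood endothelial cells Col4a1 had 190 and 531 CPM in proximal 3 and 4, against 949, 602 and 484 CPM in distal 1, 2 and 3. In fibroblasts it had 308, 666 and 698 CPM in proximal libraries, against 555, 469 and 336 CPM in distal libraries. Over the 32 clusters the CPM of Col4a1 and Col4a2 had a Pearson correlation of 0.941. The pairs Col1a1 and Col1a2 (0.986), Col6a1 and Col6a2 (0.954), Col4a3 and Col4a4 (0.895) and Col4a5 and Col4a6 (0.865) were similarly close, and Col4a1 with Col1a1 was at 0.692. These values describe clusters that share libraries and depth, and carry no test. Of those pairs, Col4a1 and Col4a2, Col6a1 and Col6a2, Col4a3 and Col4a4, and Col4a5 and Col4a6 are neighbouring protein-coding genes. The promoter windows of Col4a1 and Col4a2 are shown because the genes lie head to head and their start sites are 21 bases apart, so that the windows overlap by 78 bases. The sequences are those of RefSeq (GRCm38.p6), from 250 bases before to 50 bases after each start site, read 5′ to 3′ on the strand of the gene, with capitals for any match on either strand to 1 of 3 motifs. These were the CCAAT box, the GC box as GGGCGG, and the TATA box as TATAAA.
Col4a1, chr8:11312777-11313076, minus strand: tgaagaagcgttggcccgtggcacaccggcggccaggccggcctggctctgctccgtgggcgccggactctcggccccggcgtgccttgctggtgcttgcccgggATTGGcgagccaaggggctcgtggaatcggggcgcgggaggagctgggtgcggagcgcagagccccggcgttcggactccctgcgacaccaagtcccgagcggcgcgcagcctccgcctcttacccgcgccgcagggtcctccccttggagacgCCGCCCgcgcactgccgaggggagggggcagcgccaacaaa
Col4a2, chr8:11312555-11312854, plus strand: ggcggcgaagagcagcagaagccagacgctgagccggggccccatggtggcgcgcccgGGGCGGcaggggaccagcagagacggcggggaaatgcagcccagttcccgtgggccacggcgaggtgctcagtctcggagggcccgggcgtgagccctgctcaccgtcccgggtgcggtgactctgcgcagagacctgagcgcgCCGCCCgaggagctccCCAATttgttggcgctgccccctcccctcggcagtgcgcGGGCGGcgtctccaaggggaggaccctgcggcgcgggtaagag
Both windows held CCAAT and GGGCGG and neither held TATAAA. The 1 GGGCGG match of Col4a1 lies in the shared bases, after its start site, and is the same site as 1 of the 3 matches of Col4a2. Of 32851 promoter windows of this length, 37.4% held CCAAT, 35.7% GGGCGG and 13.6% TATAAA, and of 38 windows of 35 collagen genes 34.2%, 60.5% and 13.2% did. A match is a description of the window.

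The remaining type IV chains differed in where they were found. Col4a5 had 471 and 346 CPM in smooth muscle of proximal 3 and 4, against 197, 159 and 233 CPM in distal libraries. Col4a6, its partner in smooth muscle basement membranes, had 412 and 148 CPM in proximal 3 and 4, against 195, 177 and 296 CPM in distal libraries. By class means, Col4a5 was at 281 CPM in both fibroblasts and smooth muscle and at 42.6 CPM in pericytes, and Col4a6 at 273, 246 and 29.7 CPM. Neither difference between regions passed in smooth muscle (log2 0.52 ± 0.40 for Col4a5 and -0.46 ± 0.46 for Col4a6, SE, edgeR adjusted p = 0.417 and 0.571).

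Outside fibroblasts, some collagens stood out in certain classes, though not in 1 class alone. Col23a1, a transmembrane collagen, had 767 CPM in lymphatic endothelial cells of proximal 4, against 389 and 111 CPM in distal 1 and 2, from 58 UMIs in all. In non-ciliated epithelium it was the leading collagen, with 20.4, 257 and 221 CPM in proximal 2, 3 and 4, against 220, 83.4 and 223 CPM in distal 1, 2 and 3. Col18a1, the source of the endostatin fragment, was highest in mesothelial cells, with 541 CPM in proximal 4, against 400 and 227 CPM in distal 1 and 3. It also averaged 264 CPM in lymphatic endothelial cells. Col8a2, a short-chain collagen, averaged 36.1 CPM in ciliated epithelium against 0.2 CPM in non-ciliated epithelium. Col26a1, described in mouse testis and ovary, had 338 UMIs in ciliated cells, and averaged 24.7 CPM there. Within the ciliated class it was at 53.5, 61.4 and 60.0 CPM in cluster 9 of distal 1, 2 and 3, and at 0.0, 6.9 and 7.5 CPM in cluster 10.

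Col12a1 and Col19a1, both fibril-associated, differed between the 2 smooth muscle clusters. Cluster 3, led by Actg2 and Cnn1 and so of the visceral muscle kind, had 450, 209 and 280 CPM of Col12a1 in distal 1, 2 and 3. Cluster 18, led by Ctnna3 and Pln, had 0 and 0 CPM in proximal 3 and 4, against 14.4 and 64.2 CPM in distal 1 and 3. Col19a1 ran the other way, with 199 and 129 CPM in cluster 18 of proximal 3 and 4, against 60.1 and 38.5 CPM in distal 1 and 3. In cluster 3 Col19a1 had at most 2.8 CPM. The Col19a1 levels in cluster 18 rest on 39 UMIs. Its smooth muscle mean of 60.8 CPM was 5.69 times that of the next class, pericytes (10.7 CPM). That mean rests mainly on the proximal libraries (146 CPM), whereas pericytes had values in distal libraries only. In distal libraries Col19a1 averaged 4.06 CPM in smooth muscle, below the pericyte mean. Clusters were drawn from the same cells, so no test is given between them.

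The fibroblasts fell into 7 clusters that differed in several minor collagens. Collagens took between 1.83% of UMIs in cluster 4 and 3.00% in cluster 11, by the mean over libraries, leaving aside the small cycling cluster 29 (1.18%). Cluster 4, led by Sfrp2 and Nrg1, was almost absent from proximal tissue, with 0, 0 and 2 cells in proximal 2, 3 and 4, against 564, 444 and 528 in distal 1, 2 and 3. It carried Col7a1, the anchoring fibril collagen, at 151, 91.5 and 128 CPM in distal 1, 2 and 3. Col11a1, a fibrillar chain known from cartilage, was at 63.3, 89.7 and 66.1 CPM and Col8a1 at 31.1, 31.9 and 25.9 CPM in the same cluster and libraries. Col7a1 was higher still in proximal 3 and 4 cells of cluster 8, as given below. Cluster 1, led by Inmt, C7 and Tcf21, carried Col14a1, a fibril-associated collagen, at 156, 283 and 286 CPM in proximal libraries, against 127, 124 and 133 CPM in distal libraries. Cluster 8, led by Pi16, Apod and Lamc3, carried Col25a1 at 194, 742 and 816 CPM in proximal libraries, against 206, 103 and 98.2 CPM in distal libraries. It had no Col14a1 UMI in the proximal libraries, against 22.4, 19.5 and 41.5 CPM in the distal ones. Cluster 7, led by Dscam and Ramp3, had Col24a1 at 55.3 CPM in proximal 2, against 0.0, 65.3 and 21.3 CPM in distal libraries. In that cluster 1 UMI was worth 13.8 CPM in proximal 2 (10 cells) and 36.5 CPM in distal 1 (13 cells). The values of those libraries therefore rest on few or no UMIs.

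**Figure D2:**
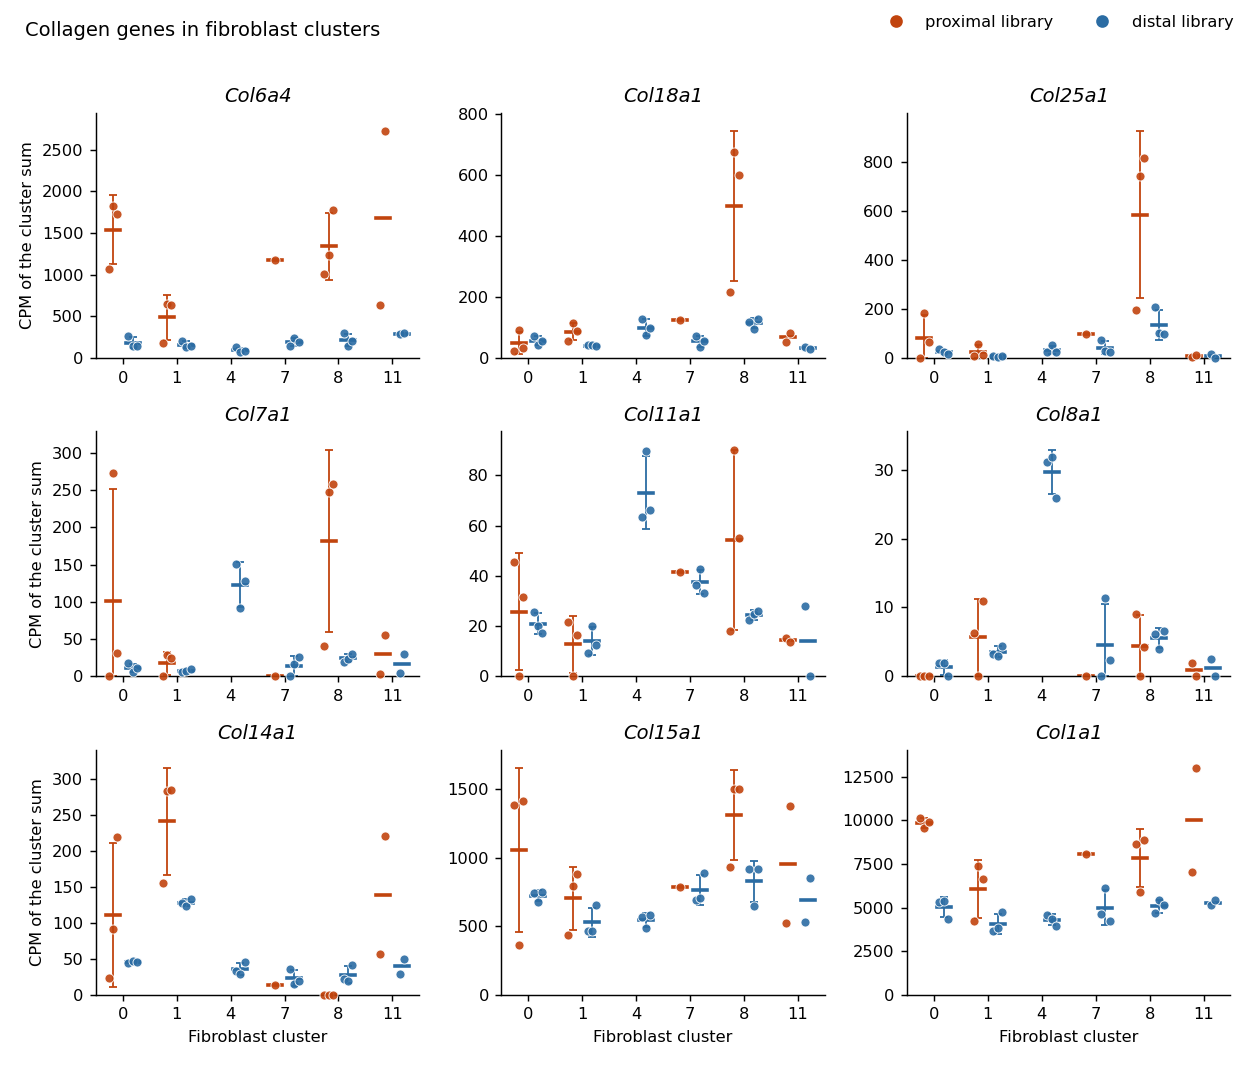
CPM of 9 collagens in 6 fibroblast clusters, 1 point a library with at least 10 cells, with the mean (bar) and SD where 3 libraries are present, on linear axes from 0, proximal left of distal. Col7a1, Col11a1 and Col8a1 stand high in cluster 4, which has no proximal point. Col7a1 is higher still in proximal 3 and 4 of cluster 8. Col6a4 is higher in proximal than in distal libraries of clusters 0 and 8.

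Whether collagen expression differed between the proximal and the distal tube was tested for each cell class, on UMI sums per library with edgeR's quasi-likelihood test, with p-values adjusted over all genes tested. In fibroblasts, 2 of 36 collagens tested were higher in proximal libraries and 0 were lower. Among all 13743 genes tested, 2.84% were called, 1.96% higher and 0.88% lower. Both called genes code for long chains of type VI collagen, Col6a4 and Col6a6, which can take the place of the Col6a3 chain in the beaded filament. Col6a4, whose human counterpart is a pseudogene, had 572, 1089 and 1314 CPM in proximal 2, 3 and 4, against 208, 179 and 140 CPM in distal 1, 2 and 3. The lowest proximal library was well above the highest distal one. The difference was 2.27 ± 0.34 on the log2 scale (SE, edgeR adjusted p = 0.0112), with means of 992 ± 380 CPM in proximal and 176 ± 33.8 CPM in distal libraries (SD, n = 3 each). Col6a6 had 35.5, 63.5 and 62.6 CPM in proximal libraries, against 13.6, 20.9 and 10.9 CPM in distal libraries. Again the groups did not overlap, and the log2 difference was 1.54 ± 0.32 (SE, edgeR adjusted p = 0.0339).

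Col6a6, Col6a5 and Col6a4 are consecutive protein-coding genes on chromosome 9, all on the minus strand, and Col6a5 pointed the same way in these cells. It had 7.40, 52.9 and 18.1 CPM in proximal libraries, against 3.08, 3.66 and 2.21 CPM in distal libraries, from 37 UMIs in proximal and 83 UMIs in distal cells. The groups did not overlap, but its log2 difference of 2.15 ± 0.54 (SE) did not pass the threshold (edgeR adjusted p = 0.0583). Their promoter windows are shown because these 3 neighbours were all higher in each proximal library, with the same capitals and source as for Col4a1.
Col6a4, chr9:106096642-106096941, minus strand: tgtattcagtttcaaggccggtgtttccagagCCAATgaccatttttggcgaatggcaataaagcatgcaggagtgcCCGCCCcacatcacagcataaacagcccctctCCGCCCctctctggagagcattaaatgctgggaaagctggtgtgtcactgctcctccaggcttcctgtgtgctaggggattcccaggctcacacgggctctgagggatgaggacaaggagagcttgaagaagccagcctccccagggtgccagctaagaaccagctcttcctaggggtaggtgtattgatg
Col6a5, chr9:105960594-105960893, minus strand: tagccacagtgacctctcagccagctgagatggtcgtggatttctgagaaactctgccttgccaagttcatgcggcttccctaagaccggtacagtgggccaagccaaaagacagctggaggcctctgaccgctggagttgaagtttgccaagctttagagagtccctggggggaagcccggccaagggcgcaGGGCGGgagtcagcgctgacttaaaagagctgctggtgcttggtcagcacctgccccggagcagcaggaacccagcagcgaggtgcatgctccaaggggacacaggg
Col6a6, chr9:105828036-105828335, minus strand: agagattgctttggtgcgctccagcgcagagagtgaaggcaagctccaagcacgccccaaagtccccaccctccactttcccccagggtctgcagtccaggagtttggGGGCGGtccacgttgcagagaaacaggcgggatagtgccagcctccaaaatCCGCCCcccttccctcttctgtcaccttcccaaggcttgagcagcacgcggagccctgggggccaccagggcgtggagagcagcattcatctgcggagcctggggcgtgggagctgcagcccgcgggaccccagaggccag
All 3 windows held GGGCGG, Col6a4 alone of the 3 also held CCAAT, and none held TATAAA, beside the shares of all promoters given above.

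**Figure D3:**
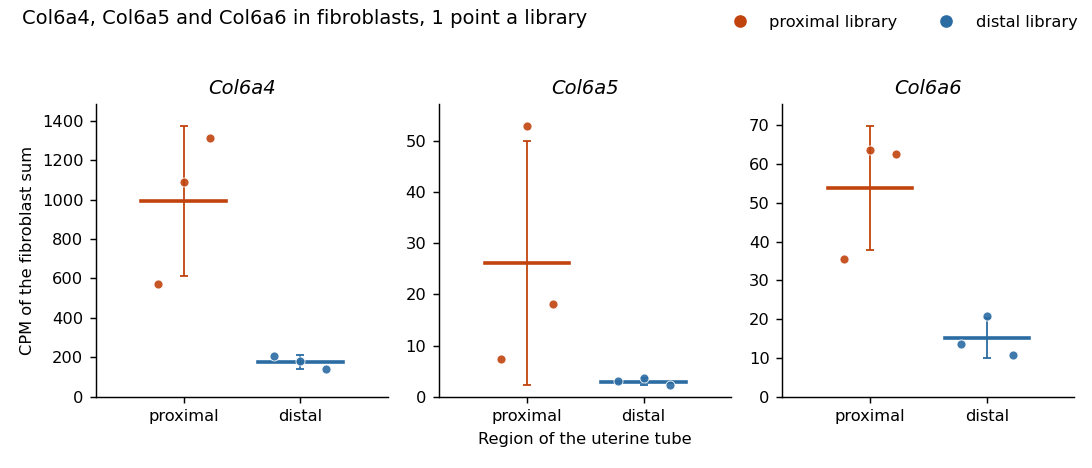
CPM of Col6a4, Col6a5 and Col6a6 in the fibroblasts of each library (points), with the mean (bar) and SD of 3 libraries per region, on linear axes from 0. For each gene the 3 proximal points lie above the 3 distal points, and proximal 2 is the lowest proximal point.

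The call for these genes depended on single libraries, although their direction did not. Without distal 1 or distal 3 neither gene passed (edgeR adjusted p = 0.0595 and 0.0575 for Col6a4, 0.14 and 0.136 for Col6a6). Col6a6 also missed the threshold without proximal 3 (edgeR adjusted p = 0.0936) and without proximal 4 (0.0714), which left 1 collagen called in each case, whereas 8 were called, all higher, without proximal 2. The calls over all genes moved as well, to 1966 of 15070 genes without proximal 2, 77 of 15225 without proximal 3 and 529 of 15057 without proximal 4.

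The partner chains Col6a1 and Col6a2, which every type VI trimer needs, were also higher in each proximal library than in any distal one. Col6a1 had 1516, 1692 and 2689 CPM in proximal fibroblasts, against 907, 1166 and 895 CPM in distal fibroblasts, a log2 difference of 0.80 ± 0.35 (SE, edgeR adjusted p = 0.281). Col6a2 had 1635, 1407 and 2391 CPM in proximal fibroblasts, against 635, 1226 and 753 CPM in distal fibroblasts, a log2 difference of 0.88 ± 0.39 (SE, edgeR adjusted p = 0.29). Col6a3, the standard long chain, overlapped between regions, with 1315, 973 and 1611 CPM in proximal and 633, 1291 and 1026 CPM in distal fibroblasts. Type VI genes together made up 21.5, 19.7 and 23.7% of collagen UMIs in proximal fibroblasts, against 13.5, 18.7 and 14.9% in distal fibroblasts.

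Across the 36 collagens tested in fibroblasts, 12 were higher in every proximal library than in every distal one, and 3 were lower. Of all genes tested, 10.8% were higher and 11.0% lower in this way. The 12 were Col1a1, Col1a2, Col3a1, Col4a4, Col5a1, Col6a1, Col6a2, Col6a4, Col6a5, Col6a6, Col14a1 and Col16a1, and the 3 were Col8a1, Col17a1 and Col26a1. The median log2 difference was 0.28 over the collagens and -0.03 over all genes tested. A total of 12 collagens had an unadjusted p under 0.05, as did 16.5% of all genes, and DESeq2 called 5 higher and 0 lower, with 3.75% of all genes called. The 5 were Col6a4, Col6a5, Col6a6, Col18a1 and Col25a1. Col25a1, a transmembrane collagen, had 23.4, 391 and 281 CPM in proximal fibroblasts, against 39.8, 29.5 and 23.2 CPM in distal fibroblasts, so that proximal 2 lay within the distal range (log2 difference 2.44 ± 0.67, SE, edgeR adjusted p = 0.0793). Col18a1 likewise had 68.6, 370 and 257 CPM in proximal fibroblasts, against 80.3, 48.7 and 68.2 CPM in distal fibroblasts (1.43 ± 0.43, SE, edgeR adjusted p = 0.107). Col17a1, the hemidesmosome collagen of basal epithelium, had 1 UMI in proximal and 83 in distal fibroblasts, a ratio of 0.094 (95% counting interval 0.0024 to 0.539). The highest fibrillar genes Col1a1, Col1a2 and Col3a1 had log2 differences of 0.46 ± 0.38, 0.20 ± 0.37 and 0.19 ± 0.37 (SE), none of which passed the edgeR threshold (adjusted p = 0.601, 0.852 and 0.86). Col15a1, the multiplexin of the stroma, overlapped as well, at 562, 1100 and 1175 CPM in proximal and 612, 590 and 702 CPM in distal fibroblasts.

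The make-up of the fibroblast class differed between libraries, so the comparison was repeated inside clusters. Cluster 11 held 57.6% of the fibroblasts of proximal 2, cluster 1 held 55.1% of those of proximal 4 and cluster 8 held 47.0% of those of proximal 3, whereas in distal libraries the largest cluster was cluster 1 in distal 1 (33.5%), cluster 7 in distal 2 (28.6%) and cluster 0 in distal 3 (43.3%). Clusters 8 and 11 were present there too, cluster 8 with 205, 141 and 136 cells in distal 1, 2 and 3 and cluster 11 with 8, 337 and 30. In cluster 0, Col6a4 had 1070, 1821 and 1732 CPM in proximal libraries, against 262, 147 and 144 CPM in distal libraries (log2 difference 2.50 ± 0.36, SE, edgeR adjusted p = 9.58e-09). It was the only collagen called of 30 tested in that cluster, where 0.651% of all genes were called. In cluster 8, 6 of 27 collagens were higher in proximal libraries and 0 lower, where 5.14% of genes were called. There, Col6a4 had 1003, 1237 and 1780 CPM in proximal libraries, against 293, 146 and 205 CPM in distal libraries (2.61 ± 0.39, SE, edgeR adjusted p = 0.000924). Col6a6 had 81.3, 67.5 and 76.1 CPM in proximal libraries, against 21.1, 22.1 and 6.5 CPM in distal libraries of cluster 8.

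Col18a1 and Col25a1, which missed the threshold over all fibroblasts, were called within cluster 8. Col18a1 had 217, 675 and 601 CPM in proximal libraries, against 119, 94.9 and 127 CPM in distal libraries (2.03 ± 0.38, SE, edgeR adjusted p = 0.00521). For Col25a1, whose values in this cluster are given above, the log2 difference was 2.00 ± 0.46 (SE, edgeR adjusted p = 0.0169), although proximal 2 lay below distal 1. Col7a1 had 40.7, 247 and 258 CPM in proximal libraries, against 19.9, 23.4 and 30.5 CPM in distal libraries (2.74 ± 0.49, SE, edgeR adjusted p = 0.00354). The sixth gene was Col6a2 (1.46 ± 0.41, SE, edgeR adjusted p = 0.0497).

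In cluster 1, Col6a4 had 179, 652 and 631 CPM in proximal libraries, against 206, 129 and 148 CPM in distal libraries, and was not called (edgeR adjusted p = 0.13). The 1 collagen called of 29 tested there was Col6a5 (2.59 ± 0.59, SE, edgeR adjusted p = 0.0386), where 1.53% of genes were called. Col6a5 had 17.2, 56.7 and 13.6 CPM in proximal and 2.5, 4.5 and 0.7 CPM in distal libraries of the cluster. These values rest on few UMIs, as 1 UMI was worth 28.3 CPM in proximal 3. In cluster 11, with 2 libraries per region, edgeR called 0 of 29 collagens, 4 had an unadjusted p under 0.05, and 0.153% of genes were called. There, Col6a4 had 632 and 2722 CPM in proximal 2 and 4, against 286 and 297 CPM in distal 2 and 3. Clusters 4 and 7 had too few proximal libraries for a test.

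Markers of other cells also differed between the fibroblast sums. The summed level of 8 pericyte markers was 70.2 to 97.3 CPM in proximal and 148 to 167 CPM in distal fibroblasts (7 of 8 detected in proximal, Higd1b at 0). That of 9 epithelial markers was 42.1 to 285 CPM in proximal and 247 to 736 CPM in distal fibroblasts, with all 9 detected in both and overlapping ranges. That of 8 blood endothelial markers was 49.9 to 84.6 CPM in proximal and 40.4 to 47.5 CPM in distal fibroblasts, all 8 detected in both. The 6 fibroblast markers were at 9424 to 9486 CPM in proximal and 7155 to 9711 CPM in distal fibroblasts. The part of these RNAs in the collagen differences was not tested.

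The genes that fold, trim, bind, sense and cleave collagens were counted in the same way, beside the 2.84% of all genes called in fibroblasts. Of 21 folding and modification genes tested, such as prolyl hydroxylases and Serpinh1, 0 passed the edgeR threshold and 4 had an unadjusted p under 0.05 (median log2 difference 0.24). Of 11 trimming and crosslinking genes, 1 was lower, Tll2, a tolloid-like protease, at 0.78, 0.00 and 2.78 CPM in proximal and 17.5, 10.7 and 9.16 CPM in distal fibroblasts (-3.33 ± 0.64, SE, edgeR adjusted p = 0.0261). Tll2 was also among the 10 leading genes of cluster 0, which was larger in distal libraries, and the part of that in its difference was not tested. None of 8 proteoglycans, 8 collagen receptors and 4 collagenases and gelatinases passed, with 4, 0 and 1 at an unadjusted p under 0.05 by edgeR. Their median log2 differences were 0.04, -0.14 and 0.27.

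In smooth muscle, 7 of 24 collagens tested passed, 5 higher and 2 lower in proximal libraries, where 13.2% of the 9177 genes tested were called, 4.85% higher and 8.3% lower. DESeq2 called 6, 4 higher and 2 lower, with 10.9% of all genes called. The class held 29 and 45 cells in proximal 3 and 4, against 1252, 141 and 421 cells in distal 1, 2 and 3, and 1 UMI was worth 58.9 CPM in proximal 3 and 16.5 CPM in proximal 4. The cells were also of another kind: cluster 18 held 89.7 and 82.2% of the class in proximal 3 and 4, whereas cluster 3 held 89.1, 97.2 and 93.8% in distal 1, 2 and 3. Region and kind of muscle cell therefore cannot be told apart in the class as a whole.

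With that, Col12a1 had 0 UMIs in proximal and 2807 in distal smooth muscle, which makes it at least 9.55-fold lower, taking 3 counts over the proximal libraries as the floor. Col1a1 was lower too, at 0 and 346 CPM in proximal 3 and 4, against 582, 747 and 601 CPM in distal libraries (-1.79 ± 0.45, SE, edgeR adjusted p = 0.00161). Col4a1 had 942 and 626 CPM in proximal 3 and 4, against 165, 110 and 81.0 CPM in distal libraries (2.14 ± 0.35, SE, edgeR adjusted p = 1.48e-07). Col4a2 had 236 and 659 CPM in proximal 3 and 4, against 144, 105 and 117 CPM in distal libraries (1.69 ± 0.36, SE, edgeR adjusted p = 0.000126). Both chains were above all distal values in each proximal library. Col6a3 had 353 and 857 CPM in proximal 3 and 4, against 151, 160 and 181 CPM in distal libraries (1.66 ± 0.35, SE, edgeR adjusted p = 0.000102). Col19a1 had 177 and 115 CPM in proximal 3 and 4, against 4.58, 4.08 and 3.52 CPM in distal libraries, from 10 UMIs in proximal and 33 UMIs in distal cells. Col18a1 had 0 and 330 CPM in proximal 3 and 4, against 16.1, 0.0 and 21.1 CPM in distal libraries. Its call (edgeR adjusted p = 9.52e-10) rests on the 20 UMIs of proximal 4 and on a spread shared between genes. Of the other abundant collagens, Col1a2 had 353 and 857 CPM in proximal 3 and 4, against 535, 747 and 650 CPM in distal libraries, and Col3a1 had 58.9 and 494 CPM, against 359, 548 and 435 CPM. Neither passed (edgeR adjusted p = 0.617 and 0.245). By library values, 5 collagens lay above all distal libraries in each proximal one and 8 below, beside 22.9% and 33.1% of all genes.

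Within cluster 18 alone, a comparison chosen after seeing the data, 2 of 9 collagens passed, where 7.23% of 1259 genes did. Col6a3 had 398 and 941 CPM in proximal 3 and 4, against 161 and 193 CPM in distal 1 and 3 (2.07 ± 0.38, SE, edgeR adjusted p = 0.0182). Col4a1 had 995 and 701 CPM in proximal 3 and 4, against 351 and 244 CPM in distal 1 and 3 (1.23 ± 0.32, SE, edgeR adjusted p = 0.0449). For Col4a2, Col18a1 and Col1a1 the difference inside the cluster was 0.80, 0.42 and -0.08 on the log2 scale, and none passed (edgeR adjusted p = 0.219, 0.692 and 0.98). Without proximal 4 the class kept 1 proximal library of 29 cells and 1 collagen was called, Col1a1, which was lower, and Col4a2, Col6a3 and Col18a1 turned to -0.22, -0.05 and -7.81. Without proximal 3, Col1a1 missed the threshold (edgeR adjusted p = 0.1). With 1 proximal library left, the spread in these fits comes from the distal libraries alone, and the lone library is assumed to vary like them.

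**Figure D4:**
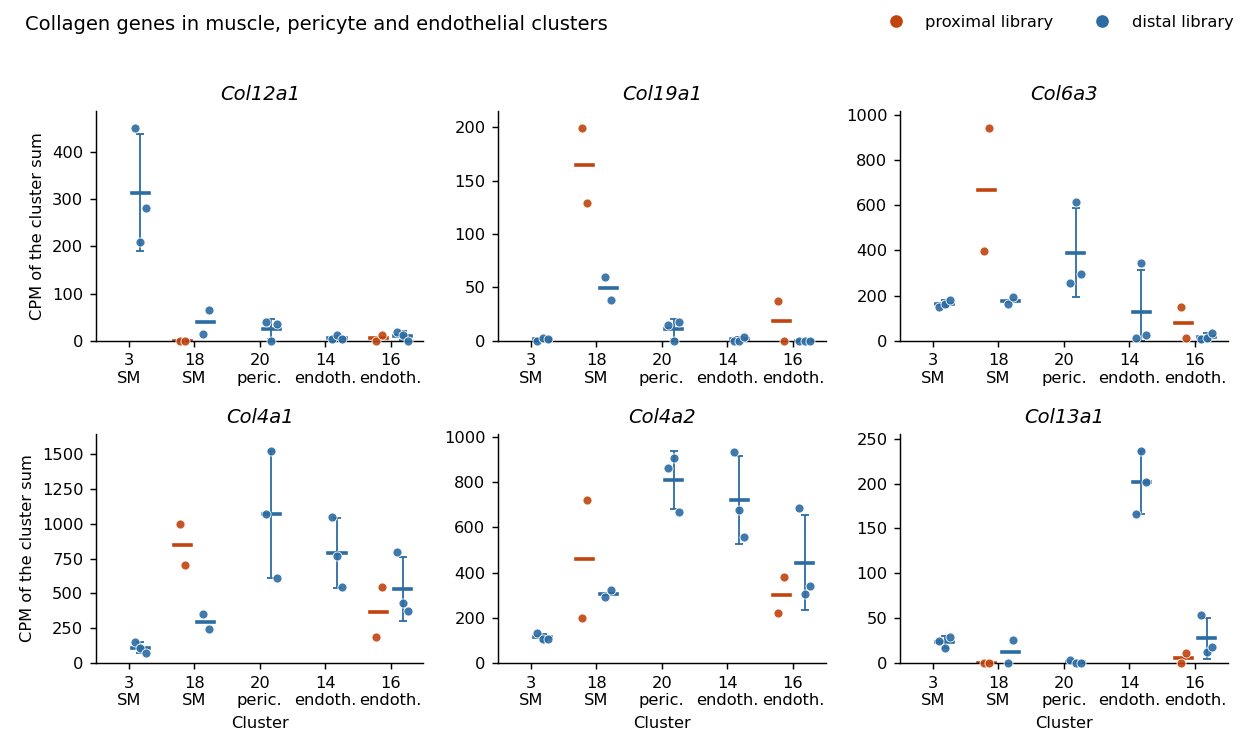
CPM of 6 collagens in the smooth muscle (SM) clusters 3 and 18, the pericyte cluster 20 and the blood endothelial clusters 14 and 16, 1 point a library with at least 10 cells, with the mean (bar) and SD where 3 libraries are present, on linear axes from 0, proximal left of distal. Col12a1 is at 209 to 450 CPM in cluster 3 and low elsewhere, Col19a1 is highest in cluster 18, and Col13a1 is highest in cluster 14.

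Among the other genes of the pathway in smooth muscle, of 17 folding and modification genes 3 were lower and 0 higher, and of 6 proteoglycans 3 were lower and 1 higher. Of 7 trimming and crosslinking genes 2 were higher and 1 lower, of 6 receptors 1 was higher, and of 3 cleavage genes none passed the edgeR threshold or an unadjusted p under 0.05. The median log2 difference of all genes tested was -0.49. Bgn, a small proteoglycan, had 294 and 330 CPM in proximal 3 and 4, against 898, 866 and 720 CPM in distal libraries. Serpinh1, the collagen chaperone of the endoplasmic reticulum, had 353 and 346 CPM in proximal 3 and 4, against 510, 1011 and 590 CPM in distal libraries. Lox, which crosslinks collagen, had 118 and 98.9 CPM in proximal 3 and 4, against 16.9, 12.2 and 15.5 CPM in distal libraries, from 8 UMIs in proximal cells. The summed pericyte markers stood at 883 to 939 CPM in proximal and 279 to 477 CPM in distal smooth muscle, with Kcnj8 and Abcc9 at 0 in proximal cells. The 6 fibroblast markers stood at 0 to 313 CPM in proximal and 605 to 1027 CPM in distal smooth muscle (5 of 6 detected in proximal). Their part in the differences was not tested.

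In blood endothelial cells, 1 of 11 collagens tested was lower in proximal libraries and 0 were higher, where 10.0% of 4077 genes were called, 4.71% higher and 5.32% lower. A total of 2 collagens had an unadjusted p under 0.05, as did 27.6% of all genes, and DESeq2 also called 1, with 6.72% of all genes called. The gene was Col13a1, a transmembrane collagen found at cell contacts, with 0 and 10.8 CPM in proximal 3 and 4, against 123, 126 and 133 CPM in distal 1, 2 and 3. This was 1 UMI in proximal and 228 UMIs in distal cells, a ratio of 0.064 (95% counting interval 0.0016 to 0.361, edgeR adjusted p = 0.00997). Without proximal 4, which again leaves 1 proximal library and a spread from distal libraries alone, it was not called (edgeR adjusted p = 0.102). Without distal 2, 5 collagens were called, and 2 without distal 3. The endothelium too was of 2 kinds, since cluster 14, led by Flt1 and Ly6c1, held 64.3, 63.3 and 68.9% of the class in distal 1, 2 and 3, but only 6 and 7 cells in proximal 3 and 4. Col13a1 was at 166, 237 and 201 CPM in cluster 14 of the distal libraries. In cluster 16, led by Selp and Vwf, it was at 0.0 and 11.9 CPM in proximal 3 and 4, against 54.2, 12.3 and 17.6 CPM in distal 1, 2 and 3. Within cluster 16, fitted alone after seeing the data, edgeR called 0 of 5 collagens, 0 at an unadjusted p under 0.05, where 7.84% of 1938 genes were called, and Col13a1 was not among those tested.

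Col4a2 was also lower in each proximal endothelial sum than in any distal one, at 190 and 357 CPM in proximal 3 and 4, against 836, 494 and 475 CPM in distal libraries (-1.07 ± 0.37, SE, edgeR adjusted p = 0.086). With Col13a1 it made 2 collagens below all distal libraries and 0 above, beside 25.7% and 25.5% of all genes. Col1a1, Col1a2, Col3a1, Col4a1, Col6a1, Col15a1 and Col18a1 overlapped between regions, and their log2 differences ran from -1.52 ± 0.99 for Col3a1 to 1.09 ± 0.90 for Col6a1 (SE), none passing the edgeR threshold. Among the other collagen genes of the lists, Tll1, which can cleave procollagen ends, was higher, at 190 and 325 CPM in proximal 3 and 4, against 28.6, 48.2 and 32.7 CPM in distal libraries (3.08 ± 0.39, SE, edgeR adjusted p = 0.00139). None of the 6 folding genes, 2 proteoglycans, 2 receptors and 1 cleavage gene tested passed the edgeR threshold, with 3, 0, 0 and 0 at an unadjusted p under 0.05. Pericyte markers stood at 0 to 21.7 CPM in proximal and 193 to 680 CPM in distal endothelial sums (2 of 8 detected in proximal, Rgs5 among those at 0). T and NK markers stood at 126 to 455 CPM in proximal and 19.4 to 43.6 CPM in distal sums. Their part was not tested.

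In non-ciliated epithelium, 2 of 13 collagens tested were higher in proximal libraries and 0 lower, where 9.43% of 10912 genes were called, 5.73% higher and 3.7% lower. A total of 5 collagens had an unadjusted p under 0.05, as did 24.2% of all genes, and DESeq2 called 2 higher and 1 lower, with 18.8% of all genes called. Col26a1 had 11.7, 34.8 and 40.3 CPM in proximal 2, 3 and 4, against 0.19, 1.46 and 0.41 CPM in distal 1, 2 and 3. This was 37 UMIs in proximal and 7 UMIs in distal cells, a log2 difference of 5.51 ± 0.63 (SE, edgeR adjusted p = 0.00105). Col9a2, a fibril-associated chain known from cartilage, had 8.74, 26.1 and 24.2 CPM in proximal libraries, against 0.76, 0.00 and 0.00 CPM in distal libraries. It rests on 24 UMIs in proximal and 4 UMIs in distal cells (5.68 ± 0.77, SE, edgeR adjusted p = 0.00222). For both genes every proximal library was above every distal one, as for 14.1% of all genes. These genes lie in cells that the distal libraries hardly held. Cluster 21, led by Serpina1e and Cwh43, made up 95.3 and 65.6% of the class in proximal 3 and 4, and cluster 25 75.9% in proximal 2. Distal cells lay mostly in cluster 5 (61.1, 55.2 and 85.5% of distal 1, 2 and 3) and cluster 12. Col26a1 was at 35.5 and 51.4 CPM in cluster 21 of proximal 3 and 4 and at 13.1 CPM in cluster 25 of proximal 2. In cluster 5 it was at 0.0 CPM in proximal 4, against 0.2, 1.3 and 0.4 CPM in distal libraries. Region and kind of epithelial cell cannot be told apart here.

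**Figure D5:**
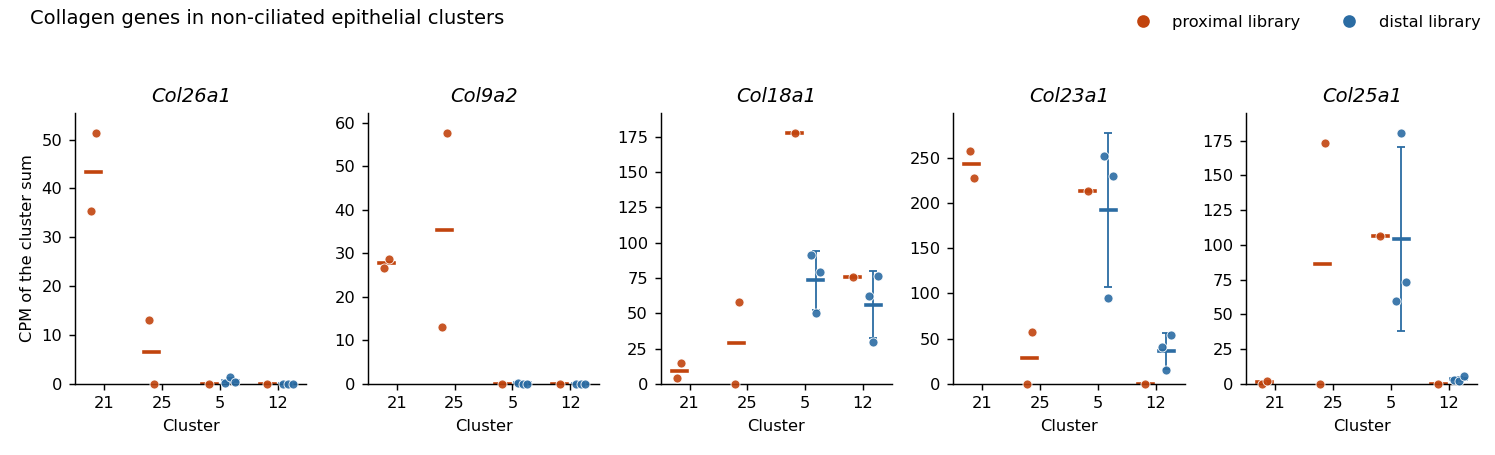
CPM of 5 collagens in the non-ciliated epithelial clusters 21, 25, 5 and 12, 1 point a library with at least 10 cells, with the mean (bar) and SD where 3 libraries are present, on linear axes from 0, proximal left of distal. Col26a1 and Col9a2 lie in clusters 21 and 25, which have proximal points only, and Col23a1 is at similar heights in clusters 21 and 5.

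Both genes were called under each alternative in which they were tested. Without proximal 2, 7 collagens were called, 5 higher and 2 lower, with 28.4% of all genes called, and without proximal 3 the count was 3, with 3.26%. Clusters 2 and 6, which express 9 of 9 epithelial markers but were left unnamed by the naming rule, were added after seeing the data. Proximal 2 had 172 cells in cluster 2, against 116 in the class. With both clusters added, 3 of 20 collagens were higher, where 3.18% of genes were called: Col26a1, Col9a2 and Col6a4 (2.99 ± 0.53, SE, edgeR adjusted p = 0.0206). In that fit Col18a1 was at -1.28 ± 0.56 and Col25a1 at -1.96 ± 0.75 (SE). Neither passed (edgeR adjusted p = 0.279 and 0.197). Cluster 6, led by Slc6a2 and Msln and seen in the distal libraries, had Col25a1 at 212, 412 and 235 CPM in distal 1, 2 and 3.

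Col18a1 went the other way in non-ciliated epithelium, at 17.5, 4.35 and 45.1 CPM in proximal libraries, against 85.2, 47.2 and 78.8 CPM in distal libraries (-1.54 ± 0.50, SE, edgeR adjusted p = 0.0848). It was the 1 collagen below all distal libraries in each proximal one, beside 14.2% of all genes. Col1a1, Col1a2, Col3a1, Col16a1, Col20a1, Col23a1 and Col25a1 overlapped, and their log2 differences ran from -0.89 ± 0.83 for Col25a1 to 1.01 ± 0.45 for Col20a1 (SE), none passing the edgeR threshold. Among list genes, Tll1 was higher, at 14.6, 139 and 118 CPM in proximal and 6.25, 4.39 and 5.14 CPM in distal libraries (3.91 ± 0.54, SE, edgeR adjusted p = 0.00237). Fkbp14, a prolyl isomerase of the endoplasmic reticulum, was lower, at 8.74, 4.35 and 11.3 CPM in proximal and 52.7, 51.2 and 43.2 CPM in distal libraries (-2.54 ± 0.40, SE, edgeR adjusted p = 0.00437). Pcolce, an enhancer of procollagen trimming, was lower, at 2.91, 4.35 and 4.84 CPM in proximal and 13.8, 47.5 and 35.6 CPM in distal libraries. Prelp, a proteoglycan, had 3 UMIs in proximal and 170 in distal cells, a ratio of 0.190 (95% counting interval 0.0389 to 0.566). In counts, 1 of 18 folding genes was lower, 1 of 3 trimming genes higher and 1 lower, and 1 of 4 proteoglycans lower. None of 3 receptors and 2 cleavage genes passed the edgeR threshold, with 1 and 0 at an unadjusted p under 0.05. The 9 epithelial markers stood at 7639 to 12632 CPM in proximal and 19457 to 23724 CPM in distal sums, all detected in both, and the 6 fibroblast markers at 8.7 to 79.0 CPM in proximal and 43.4 to 66.2 CPM in distal sums. The 8 ciliated markers, all detected in both, stood at 60.9 to 96.2 CPM in proximal and 145 to 181 CPM in distal sums. The 6 lymphatic markers stood at 23.3 to 222 CPM in proximal and 9.1 to 18.5 CPM in distal sums (3 of 6 detected in proximal). Lyve1, Flt4 and Mmrn1 were at 0 in proximal sums, and in cluster 21 Ccl21a was at 0 as well. The part of these RNAs in the collagen differences was not tested.

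In ciliated epithelium, edgeR called 0 of 22 collagens, where 0.114% of 13170 genes were called, 0.0683% higher and 0.0456% lower. A total of 2 collagens, Col8a2 and Col5a2, had an unadjusted p under 0.05, as did 15.4% of all genes, and DESeq2 called 1, with 4.02% of all genes called. The proximal side held 24 and 31 cells in proximal 2 and 4, where 1 UMI was worth 9.77 and 10.5 CPM. Col8a2 had 1 UMI in proximal and 554 UMIs in distal ciliated cells, a ratio of 0.096 (95% counting interval 0.0024 to 0.537). For Col26a1 the counts were 2 UMIs in proximal and 336 in distal cells, a ratio of 0.317 (0.0382 to 1.15). The libraries of the 2 regions did not overlap for 5 collagens, beside 43.0% of all genes, with Col15a1 above and Col4a6, Col5a1, Col8a2 and Col26a1 below the distal libraries. Col1a1, Col1a2, Col3a1, Col4a1, Col23a1 and Col25a1 overlapped between regions. Of the other lists none of the genes tested passed the edgeR threshold, with 1 folding, 1 trimming, 1 proteoglycan, 0 receptor and 1 cleavage gene at an unadjusted p under 0.05. The proximal 2 cells came mainly from cluster 17, which expressed 7 of 8 ciliated markers but whose median depth was 0.319 of that of its libraries, under the limit of the naming rule. They were counted as ciliated after seeing the data, since otherwise proximal 4 alone would have been left for the region.

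Whether the region difference itself differed between fibroblasts and non-ciliated epithelium was tested as an interaction with the libraries as a block. A total of 5 of 36 collagens passed, where 4.03% of 15640 genes did. For Col18a1 the log2 proximal minus distal difference was larger in fibroblasts than in epithelium by 3.16 ± 0.45 (SE, edgeR adjusted p = 5.09e-05). It was higher in proximal 3 and 4 fibroblasts and lower in all proximal epithelial sums. Col26a1 ran against this, at -6.40 ± 0.88 (SE, edgeR adjusted p = 3.9e-05), being below the distal libraries in proximal fibroblasts and above them in proximal epithelium. Its fibroblast side lies near the floor. Of its 515 UMIs in all cells, 336 lay in distal ciliated cells and 37 in proximal non-ciliated epithelium. In proximal 3 fibroblasts 1 UMI was worth 10.6 CPM. Col18a1 and Col26a1 were called under all alternatives run. Col25a1 (3.15 ± 0.87, edgeR adjusted p = 0.0353), Col9a2 (-4.10 ± 1.05, edgeR adjusted p = 0.0213) and Col5a2 (-2.37 ± 0.59, edgeR adjusted p = 0.0175) passed as well. Without proximal 3 or proximal 4 these 3 were not called, which left 2, and 3 collagens were called without distal 1 or distal 3. Col5a2, a type V chain, was at 2.91, 43.5 and 22.6 CPM in proximal epithelium, against 3.22, 5.12 and 3.70 CPM in distal epithelium. In fibroblasts it was at 374, 264 and 512 CPM in proximal and 471, 405 and 457 CPM in distal libraries. The epithelial side of each of these values carries the difference of clusters described above. For Col6a4 the interaction was -0.53 ± 0.58 (SE, edgeR adjusted p = 0.746).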

How the data were processed

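Droplet libraries of 6 pools of uterine tube tissue were used, proximal 2, 3 and 4 and distal 1, 2 and 3. The deposited values are raw UMI counts per gene and cell barcode, made with Cell Ranger, version 7.0.0 per the file headers and 6.1.2 with mm39 per the submitters' processing notes. Whether reads in introns were counted is not given in the sources used here. The listed barcodes held 91560090 counts in 20731 barcodes. Intervals and floors cover counting error only.

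Barcodes with under 500 UMIs, under 250 genes or over 20% mitochondrial counts were removed (1447), as were the top-scoring barcodes of simulated doublets at 0.8% per 1000 barcodes (818). The rest were clustered with scanpy 1.11.5 in Python 3.11.15 (2000 variable genes without collagens or other list genes, 30 components, 15 neighbours, Leiden resolution 1). Clusters were named from marker lists, and 3 of 32 stayed unnamed. For each class, the counts of all its cells in a library were added up, and these sums were tested with edgeR 4.0.16 in R 4.3.3 (quasi-likelihood test, TMM scaling, filterByExpr, Benjamini-Hochberg adjustment over all genes tested, threshold 0.05). The fold is proximal over distal, and its SE is the size of the log2 fold over the square root of F. The edgeR and DESeq2 tests were checked on counts simulated from fibroblast means, for 3 against 3 libraries only. The simulated counts had 1 spread for all genes, and genes of low level were left unchanged. Fits with fewer libraries and calls at low counts were not checked in this way. DESeq2 1.42.0, RLE scaling, no filter on low counts, leaving out each library, thinned distal counts, kept doublets, resolution 1.5, list genes among the variable genes and sums of at least 20 cells were alternatives. Added after seeing the data were fits within smooth muscle and endothelial clusters, fits with the unnamed epithelial clusters, subtraction of fibroblast RNA, and the counting of cluster 17 as ciliated.

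Named in each region comparison are the collagens that passed, the 8 of highest level, and up to 6 genes of the other lists that passed. Further genes named (such as Col6a5, Col17a1 and the genes of single clusters) were chosen after their values were seen. The members and lists were chosen with earlier results of these data known. Replicate numbers do not show that libraries are pairs. The titles number the distal libraries 1, 2 and 3 and the descriptions call the last of them 4.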

Additional observations from a re-analysis of the deposited data

Results flagged for a closer look

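In 5 collagens the region difference differed between fibroblasts and non-ciliated epithelium by the test of that difference itself, given here on the log2 scale as the fibroblast difference minus the epithelial one. The values were 3.165 for Col18a1, 3.152 for Col25a1, -6.396 for Col26a1, -2.37 for Col5a2 and -4.096 for Col9a2. Col18a1 and Col26a1 passed under all 14 alternatives run, Col9a2 under 7, Col5a2 under 6 and Col25a1 under 3. Over all genes, 416 differences were higher and 214 lower in fibroblasts with TMM scaling (median log2 difference 0.18), against 363 and 356 with RLE scaling (median -0.03), a shift of -0.21 in the median. With RLE scaling 4 of the 5 still passed and Col25a1 did not. The epithelial sums of the 2 regions came from different clusters, and the part of that in these values was not tested.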

How the results depend on the processing

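Counts of collagens called are given first, each against the count in the report, and the cause of a change was not tested unless stated. In fibroblasts, 2 were called, against 5 with DESeq2, 7 with no filter on low counts, 1 with distal counts thinned to proximal depth, 1 within cluster 0, 1 within cluster 1, 6 within cluster 8 and 0 within cluster 11, and 0 to 8 with 1 library left out. In smooth muscle, 7 were called, against 4 with thinned counts, 2 within cluster 18 and 1 to 7 with 1 library left out. In blood endothelial cells, 1 was called, against 4 with no filter, 0 within cluster 16 and 0 to 5 with 1 library left out. In non-ciliated epithelium, 2 were called, against 5 with no filter, 0 with thinned counts and 2 to 7 with 1 library left out. In ciliated epithelium, edgeR called 0, against 1 with DESeq2, 3 with no filter and 1 with doublets kept, and 0 with any library left out. Between fibroblasts and non-ciliated epithelium 5 differed, against 3 with DESeq2, 2 each with thinned counts, kept doublets, resolution 1.5 and list genes among the variable genes, and 2 to 5 with 1 library left out. Thinned fits and fits within clusters test fewer genes by construction.

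Shared replicate numbers were fitted as a block by the titles, by the descriptions, or as a term for group 2 alone, whose 2 libraries share a number in both. In fibroblasts the block by title left 2 collagens called, that by description gave 7 (5 higher, 2 lower) and the group 2 term 9 (7 higher, 2 lower). The group 2 term gave 4 in non-ciliated epithelium (3 higher, 1 lower) and 4 in blood endothelial cells (2 higher, 2 lower). In blood endothelium and smooth muscle proximal 2 is absent, so there the term fits distal 2 alone and is no block on a shared number. The block by description gave 1 in ciliated epithelium. Deviations from the group mean had a correlation of 0.36 for distal 2 and proximal 2, 0.119 for distal 3 and proximal 3 (titles) and 0.042 for distal 3 and proximal 4 (descriptions), so the numbers are not shown to pair the libraries. Smooth muscle and blood endothelium share too few numbers for a full block.

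Single genes reversed as follows, on the log2 scale. In smooth muscle, Col18a1 ran from -7.81 without proximal 4 to 4.02 without proximal 3, Col4a2 from -0.22 to 1.945 and Col6a3 from -0.045 to 1.91 with the same libraries left out. Aspn was at -1.20 within cluster 18, and Dcn at 0.91 with fibroblast RNA subtracted. In fibroblasts, Col25a1 was at -1.46 within cluster 11 and Col18a1 at -1.14 within cluster 0. Of 357 other values of named genes under an alternative, 284 kept their side of the threshold, 52 lost the call, 17 gained it and 4 reversed, and of 172 with 1 library left out 126, 40, 3 and 3 did. The smallest proximal sums held 94556 UMIs in fibroblasts, 16983 in smooth muscle, 31639 in blood endothelial cells, 229729 in non-ciliated and 95585 in ciliated epithelium.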
